A study of Mus musculus with 6 samples.

Results

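Heat shock proteins and DnaJ co-chaperones were examined in mouse macrophages and neutrophils with and without the Steap4 product TIARP. The members were all genes whose name on the array begins with Hspa, Hspb, Hspd, Hspe, Hsph, Hsp90 or Dnaj, with control spots left out and each gene read by its brightest probe. This gave 73 of the 34797 gene names on the array, 28 of them Hsp names and 45 Dnaj names, measured by 110 probes. Hspbap1 and Hspbp1 match by name but are not small heat shock proteins. Of the 73 genes, 60 were well above background on all 6 arrays, 7 on some and 6 on none (Dnajb7, Dnajc22, Dnajc6, Hspa12a, Hspb3 and Hspbap1). Hspa1b, a near-identical copy of Hspa1a, has no probe of that name, and signal from the pair cannot be told apart in the Hspa1a values.

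Chaperones of the HSP70 family bind unfolded stretches of protein and release them through cycles of ATP hydrolysis, and each cycle is started by a J-domain protein, the product of a Dnaj gene, which brings the client and speeds the hydrolysis. HSP110 proteins exchange the nucleotide, HSP90 proteins finish the folding of kinases and receptors, HSP60 and its lid HSP10 fold proteins inside mitochondria, and small heat shock proteins hold unfolded proteins until HSP70 can take them. Under heat or oxidative stress, heat shock factor 1 binds heat shock elements in front of the inducible genes, whereas an excess of unfolded protein in the endoplasmic reticulum (ER) switches on a separate set of ER chaperones. In macrophages and neutrophils these genes are known to respond to inflammatory stimuli, fever and the secretory load of the cell.

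All mice were C57BL/6. Peritoneal macrophages came from TIARP+/+ (WT) or TIARP-/- (KO) mice given thioglycollate 3 days before, and were profiled without or with tumour necrosis factor alpha (TNF), given for 24 hours. Neutrophils were Ly6G-positive spleen cells of WT or KO mice, separated on magnetic beads, with no thioglycollate or TNF named. The neutrophil and macrophage arrays thus also differ in organ, thioglycollate and the separation named, which cannot be told apart from cell type here. Each of the 6 groups was 1 one-colour array, the cells are described as coming from 3 mice a genotype, and whether RNA was pooled is not given, nor how long the macrophages without TNF were in culture. Differences between 2 arrays therefore have no replicate check, and the p-values below come from models that use 1 condition as the replicate of another, which may share mice.

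Levels are log2 signals relative to the array's own 75th percentile, so that 0 is the 75th percentile. This signal was 490 and 410 in WT and KO macrophages, 432 and 338 with TNF, and 231 and 224 in the neutrophils. Steap4 itself was -1.49 in WT and -2.30 in KO macrophages, -3.13 and not well above background (-4.72) with TNF, and -2.25 and -2.64 in the neutrophils. It was thus still well above background on the arrays labelled KO of macrophages without TNF and of neutrophils, and no source used here says whether its probe lies in the deleted part, so it does not settle the labels; WT and KO below are the labelled genotypes. S100a9 stood at 10.23 and 10.28 on the neutrophil arrays, but these also carried B cell markers (summed signal 550 and 516 times the 75th percentile, against 4.83 to 19.7 on the macrophage arrays) and erythroid markers (683 in WT and 1668 in KO). All 10 mature neutrophil markers were higher in KO than in WT neutrophils (median 0.95, 3 of them past 2-fold), and they summed to 2745 and 2228. Eosinophil markers summed to 52.9 in WT and 19.6 in KO neutrophils. Markers of mature neutrophils summed to 176 and 249 on the WT and to 455 and 504 on the KO macrophage arrays, and markers of mesothelium and fibroblasts to 266 and 252 on the WT and 149 and 121 on the KO macrophage arrays. Fewer cells of a type and less RNA per cell cannot be told apart in these samples.

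A gene was called when 2 arrays differed at least 2-fold and the brighter spot was well above background. Where the dimmer spot was not, the fold is a lower bound ("at least"), computed against the dimmest signal well above background on that array. Scaling to the spike-in probes in place of the 75th percentile moved the median of all genes between KO and WT from 0.07 to -0.45 in macrophages, from 0.06 to -0.72 with TNF and from -0.02 to -0.43 in neutrophils. It moved the median between neutrophils and macrophages from 0.16 to -1.42 in WT and from 0.12 to -1.35 in KO, and that of TNF from 0.04 to -0.01 in WT and from 0.04 to -0.26 in KO. Differences below are relative to the 75th percentile, that is, to the bulk of genes.

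Some of the members' promoters hold a heat shock element or an ER stress element. Heat shock elements are inverted repeats of GAA, searched as GAANNTTC and TTCNNGAA, each of which reads the same on both strands. In the 250 bases before the start of the gene (RefSeq, GRCm38.p6), either form was found in 13 of the 59 members with a RefSeq promoter (22.0%) and in 14.5% of 27025 genes. A run of GAANNTTCNNGAA, which holds both forms, was found in front of Dnajb6, Hspd1 and Hspe1 (5.08% of the 59, against 0.514% of genes). The ER stress element, searched on both strands as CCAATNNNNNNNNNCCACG, was found in front of Dnajc3, Hsp90b1 and Hspa5 (5.08%, against 0.130% of genes). The probes of Hspd1 and Hspe1 lie near each other on chromosome 1, and whether their matches are the same stretch of DNA was not checked. A match describes the letters and does not show binding. The first 3 sequences below belong to genes that were higher on the neutrophil arrays than in macrophages and carry 1 element each. Other members with an element were lower on the neutrophil arrays, such as Dnajc10 (-1.36 in WT and -1.52 in KO) and Dnajb6 (-0.83 and -0.62). Dnajb1, Dnajb8, Dnajb9, Dnajc7, Dnajc9 and Dnajc14 were called higher there in both genotypes and were not among the 13. Of the other printed genes, Hspb1 carries 2 elements, Hspe1 has the longer run, and Hspa5 and Dnajc3 have the ER stress element. Each sequence is printed 5′ to 3′ on the gene's strand, with the matched element in capitals.
Hspa1a, chr17:34972157-34972406, minus strand: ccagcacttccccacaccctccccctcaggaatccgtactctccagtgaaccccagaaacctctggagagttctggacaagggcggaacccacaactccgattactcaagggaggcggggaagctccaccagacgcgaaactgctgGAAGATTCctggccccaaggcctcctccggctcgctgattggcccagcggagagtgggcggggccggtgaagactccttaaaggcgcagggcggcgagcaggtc
Dnajb4, chr3:152193846-152194095, minus strand: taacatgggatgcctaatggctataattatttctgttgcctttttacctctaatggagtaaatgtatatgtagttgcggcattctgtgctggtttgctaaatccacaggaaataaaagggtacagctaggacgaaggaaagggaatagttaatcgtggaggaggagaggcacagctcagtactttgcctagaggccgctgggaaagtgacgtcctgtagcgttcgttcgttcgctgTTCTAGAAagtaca
Hsph1, chr5:149636337-149636586, minus strand: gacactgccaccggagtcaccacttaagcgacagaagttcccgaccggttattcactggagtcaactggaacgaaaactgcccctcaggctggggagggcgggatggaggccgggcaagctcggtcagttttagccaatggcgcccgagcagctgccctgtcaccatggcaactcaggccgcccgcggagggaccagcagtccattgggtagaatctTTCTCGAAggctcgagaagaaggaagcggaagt
Hspb1, chr5:135887669-135887918, plus strand: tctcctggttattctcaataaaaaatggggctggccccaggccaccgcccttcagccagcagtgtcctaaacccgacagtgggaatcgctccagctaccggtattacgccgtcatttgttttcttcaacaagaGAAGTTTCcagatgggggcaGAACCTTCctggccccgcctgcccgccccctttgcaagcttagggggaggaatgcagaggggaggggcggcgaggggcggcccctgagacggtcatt
Hspe1, chr1:55087898-55088147, plus strand: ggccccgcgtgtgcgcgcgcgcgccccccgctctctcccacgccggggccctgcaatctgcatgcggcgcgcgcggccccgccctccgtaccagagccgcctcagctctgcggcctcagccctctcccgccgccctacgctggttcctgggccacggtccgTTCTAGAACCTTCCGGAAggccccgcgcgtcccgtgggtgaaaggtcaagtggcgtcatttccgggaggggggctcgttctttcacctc
Hspa5, chr2:34771840-34772089, plus strand: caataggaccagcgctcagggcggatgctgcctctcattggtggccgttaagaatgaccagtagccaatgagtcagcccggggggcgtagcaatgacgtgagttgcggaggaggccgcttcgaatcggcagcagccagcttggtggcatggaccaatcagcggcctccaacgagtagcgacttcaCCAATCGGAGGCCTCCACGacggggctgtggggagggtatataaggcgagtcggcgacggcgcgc
Dnajc3, chr14:118937682-118937931, plus strand: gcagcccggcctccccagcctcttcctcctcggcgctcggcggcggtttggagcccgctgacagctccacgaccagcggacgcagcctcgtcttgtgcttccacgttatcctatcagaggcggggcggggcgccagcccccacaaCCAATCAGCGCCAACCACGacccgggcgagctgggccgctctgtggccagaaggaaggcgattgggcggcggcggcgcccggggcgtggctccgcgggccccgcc
The Hspa1a element begins 104 bases before the start, that of Hsph1 33 bases and that of Dnajb4 14 bases. The pair in front of Hspb1 begins 117 and 97 bases before the start.

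**Figure D1:**
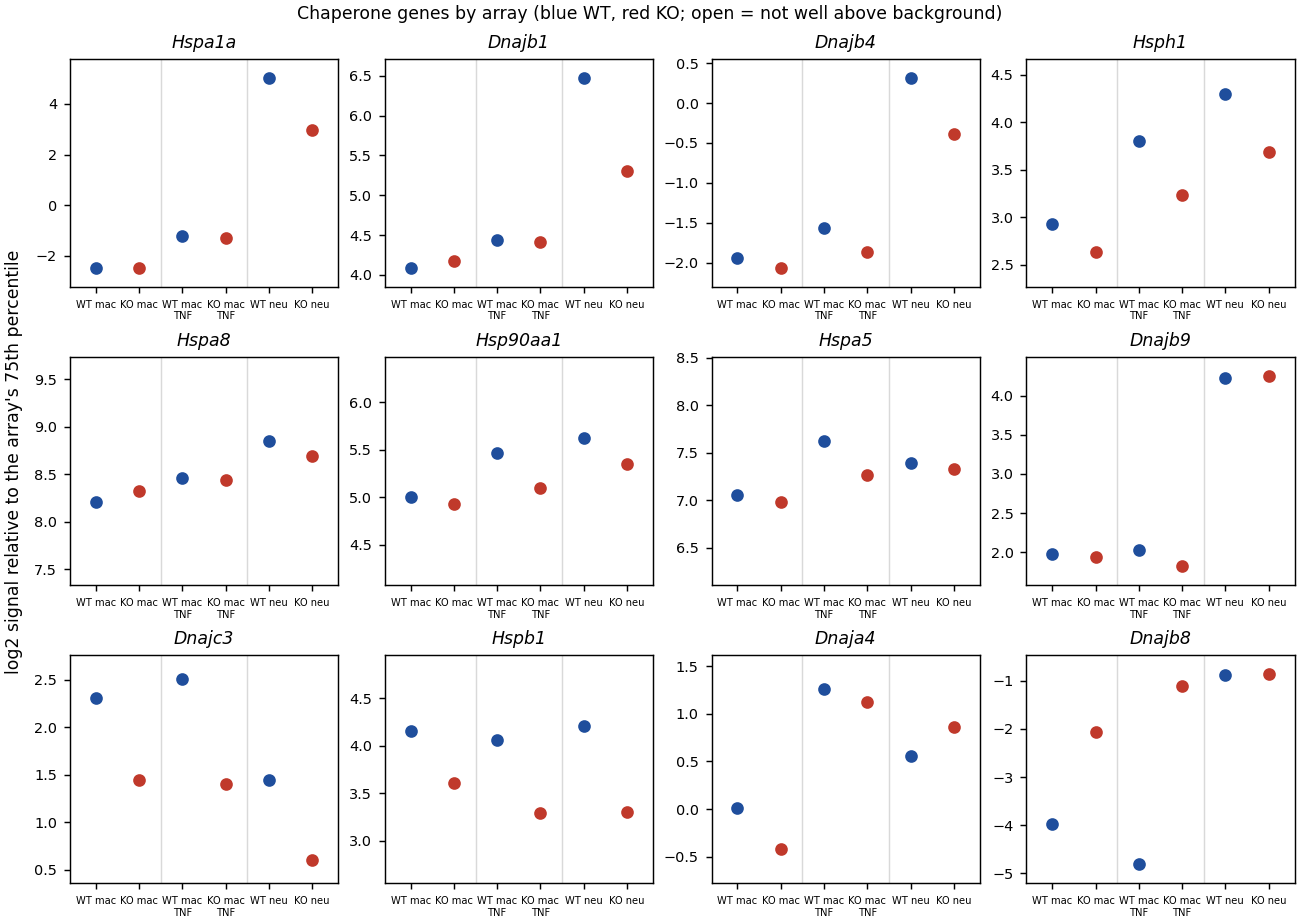
Log2 signal of 12 chaperone genes on each array, relative to that array's 75th percentile (y axis, own scale per gene). Blue points are WT and red points KO, 1 array per group, and every point was well above background. Hspa1a runs from -2.49 in WT macrophages to 5.02 in WT neutrophils, and Dnajc3 is lower in KO than in WT within each of the 3 conditions.

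Hspa1a, the stress-inducible cytosolic HSP70, had the largest measured excess in neutrophils over macrophages. Its level was -2.49 in WT and -2.47 in KO macrophages, -1.23 and -1.30 with TNF, and 5.02 and 2.98 in WT and KO neutrophils. It was low in resting macrophages of either genotype, higher with TNF and far higher on the neutrophil arrays, where the WT array stood above the KO array. The neutrophil arrays exceeded the macrophage arrays 181-fold in WT and 43.6-fold in KO, a contrast that also spans organ and handling. In limma's fit over both genotypes the rise was 6.47 on the log2 scale (SE 0.59, adjusted p = 0.00759). Within neutrophils the KO array was 4.11-fold lower than WT, a difference of -2.04.

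Dnajb1, the J-domain partner that loads clients onto the inducible HSP70, followed the same order. Its level was 4.08 and 4.18 in WT and KO macrophages, 4.44 and 4.41 with TNF, and 6.47 and 5.30 in neutrophils. Macrophage arrays lay close together, and the WT neutrophil array was the highest. It rose in neutrophils over macrophages by 1.76 (SE 0.39, adjusted p = 0.0340 in limma), 5.24-fold in WT and 2.18-fold in KO, although with spike-in scaling the WT difference was 0.81, below 2-fold, and the KO difference turned to -0.34. KO neutrophils were 2.25-fold lower than WT neutrophils (-1.17), and -0.96 after quantile normalization, which ends the call.

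Dnajb4, another class B J-protein of the cytosol, had levels of -1.95 and -2.07 in WT and KO macrophages, -1.56 and -1.86 with TNF, and 0.31 and -0.39 in neutrophils. Hsph1, the HSP110 that exchanges nucleotide on HSP70, had levels of 2.93 and 2.63 in macrophages, 3.80 and 3.24 with TNF, and 4.29 and 3.69 in neutrophils. Both were higher in neutrophils than in macrophages without TNF of the same genotype and lower on each KO array than on its WT counterpart, and Hsph1 in WT macrophages with TNF lay between the neutrophil arrays. In limma's fit Dnajb4 rose in neutrophils by 1.97 (adjusted p = 0.0113) and Hsph1 by 1.21 (adjusted p = 0.0190); with spike-in scaling Hsph1 turned to -0.22 in WT and -0.41 in KO, and Dnajb4 came to 0.68 and 0.21, below 2-fold.

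The constitutive chaperones differed less. Hspa8, the HSP70 that every cell carries, ranged from 8.21 to 8.85 over the 6 arrays. Hsp90ab1, the constitutive cytosolic HSP90, ranged from 7.21 to 7.88, its inducible relative Hsp90aa1 from 4.93 to 5.62, and Dnaja1, a class A J-protein of the cytosol, from 5.40 to 6.11. None of these 4 differed 2-fold between the arrays of any comparison, and their small excess on the neutrophil arrays (0.37 to 0.70) became a deficit of -0.87 to -1.10 with spike-in scaling, and that of Hspa8 turned to -0.03 and -0.05 after quantile normalization.

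Over all members, 24 of the 67 measured in WT differed at least 2-fold between neutrophils and macrophages, 11 higher and 13 lower, where 44.4% of all genes did (26.4% higher and 17.9% lower). In KO it was 30 of 66, 12 higher and 18 lower, against 44.9% of genes (25.3% and 19.6%). The median member was -0.10 in WT and -0.43 in KO, against 0.12 and 0.10 for all genes tested. Of the members called higher, 9 were shared, 81.8% of the WT calls and 75% of the KO calls, and of those called lower 12, 92.3% and 66.7%. The overlap over all genes is not given here, so these shares have no background and are not read as particular to the members. In limma's fit 33 of 66 members passed an adjusted p of 0.05, 12 higher and 21 lower, where 52.3% of all genes passed (28.2% and 24.2%), close to the members' 50%; 3 of the 21, Hspb2, Hspb7 and Hspb8, entered the fit through the macrophage arrays alone. With spike-in scaling the splits became 4 higher and 46 lower in WT (74.6% of members, against 69.3% of genes called) and 1 and 50 in KO (77.3%, against 67.4%).

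Dnajb9, an ER J-protein that reins in the unfolded protein sensor IRE1, was 1.97 and 1.94 in WT and KO macrophages, 2.02 and 1.82 with TNF, and 4.23 and 4.25 in neutrophils. It differed little among the macrophage arrays and rose in neutrophils by 2.28 (SE 0.18, adjusted p = 0.00667 in limma), though with spike-in scaling the differences were 0.67 in WT and 0.83 in KO, below 2-fold. Its dimmer probe gave a like difference, 2.62 in WT and 2.75 in KO. The other ER chaperones did not share this: of the 18 on the list, 14 were below macrophages in each genotype, with medians of -0.43 in WT and -1.03 in KO, and in limma's fit 1 rose (Dnajb9) and 8 fell. Pdia4, an ER disulfide isomerase, and Creld2 were at least 2-fold higher in WT neutrophils (1.26 and 1.14), and no list gene other than Dnajb9 was in KO. Of 4 plasma cell markers, Tnfrsf17 was higher on the neutrophil arrays (1.73 in WT and -1.29 in KO, and not well above background in macrophages), Sdc1 was past 2-fold lower, and the median was 0.26 in WT and -0.52 in KO; their part in these values was not tested.

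Dnajc14, a J-protein of the ER membrane known for receptor export, gave conflicting readings. Its brighter probe stood at -0.91, -0.99, -0.86 and -0.86 on the 4 macrophage arrays, at 3.37 in WT neutrophils and at 0.91 in KO neutrophils. The dimmer probe, also well above background throughout, was lower in neutrophils than in macrophages (-0.90 in WT and -0.27 in KO) and 0.64 higher in KO than in WT neutrophils. The direction for Dnajc14 therefore depends on the probe, and with probes averaged the KO and WT neutrophil difference went from -2.46 to -0.91, which ends the call. Dnajc9, a histone co-chaperone, and Dnajc7, which bridges HSP70 and HSP90, rose in neutrophils by 1.34 (adjusted p = 0.0155 in limma) and 1.12 (adjusted p = 0.0189), and both turned below 0 in each genotype with spike-in scaling.

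**Figure D2:**
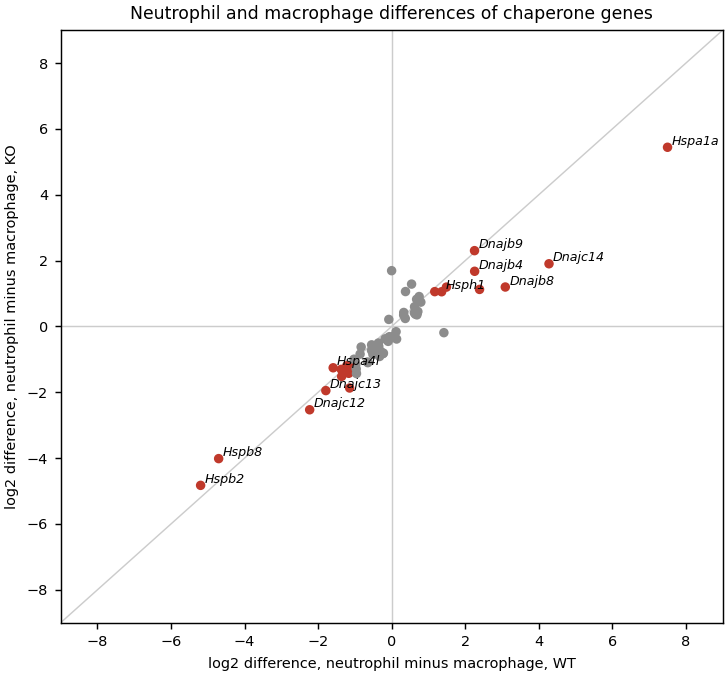
Log2 difference of neutrophils minus macrophages without TNF in WT (x axis) and KO (y axis), 1 point per member measured in both, with a bound in place of the difference where 1 cell type gave no signal well above background. Red points were at least 2-fold different in both genotypes, and the grey line marks equal differences. Hspa1a lies at 7.50 and 5.44, and Hspb2 and Hspb8 lie at the other end.

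The largest deficits in neutrophils were of small heat shock proteins. Hspb2, a small heat shock protein best known from muscle, was 0.81 and 0.41 in WT and KO macrophages and 0.61 and -0.03 with TNF. Hspb8, which works with Bag3 in clearing misfolded proteins by autophagy, was 0.32 and -0.40, and -0.00 and -0.98 with TNF. On the neutrophil arrays neither was well above background. Hspb2 was at least 36.6-fold lower in WT and at least 28.4-fold lower in KO neutrophils. Hspb8 was lower by at least 26.1-fold and 16.2-fold. These genes entered limma's fit through the macrophage arrays alone, so no p is given for them. Hspb7 was not well above background in neutrophils either, and was at least 2.69-fold lower in KO, with the WT bound under 2-fold.

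Hspb2 and Hspb8 moved with the mesothelial and fibroblast genes. All 8 markers of those cells were at least 2-fold lower on the neutrophil arrays, where 5 of 8 in WT and 4 of 8 in KO were not well above background, Wt1 and Upk3b among them. Col1a1, a fibrillar collagen, was 6.25, 5.17, 6.19 and 4.71 on the macrophage arrays in the same order. On the KO macrophage arrays, where these markers had a median of -0.87 against WT (-0.83 with TNF), Hspb8 was lower by -0.72 and -0.98 and Hspb2 by -0.40 and -0.64. Of the heat shock factor targets outside the naming rule, Serpinh1 and Cryab, singled out after their values were seen, had the same order. Serpinh1, the collagen chaperone, was 4.80, 3.78, 4.73 and 3.37 on the macrophage arrays and Cryab, a small heat shock protein of lens and muscle, 4.71, 4.03, 4.60 and 3.43. The targets Chordc1, Stip1, Fkbp4 and Ahsa1 were also below WT on the KO macrophage arrays but by less, with KO minus WT between -0.38 and -0.02. Bag3, another of these targets, was at least 2-fold lower on the neutrophil arrays in both genotypes. Its genotype effect in limma's fit was -0.38 (adjusted p = 0.356). Hspb7, at lower signal, went the other way from these markers by genotype. It was -3.43 in WT and -2.99 in KO macrophages, and -4.03 and -3.37 with TNF. The part of mesothelial and fibroblast cells in these values was not tested.

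**Figure D3:**
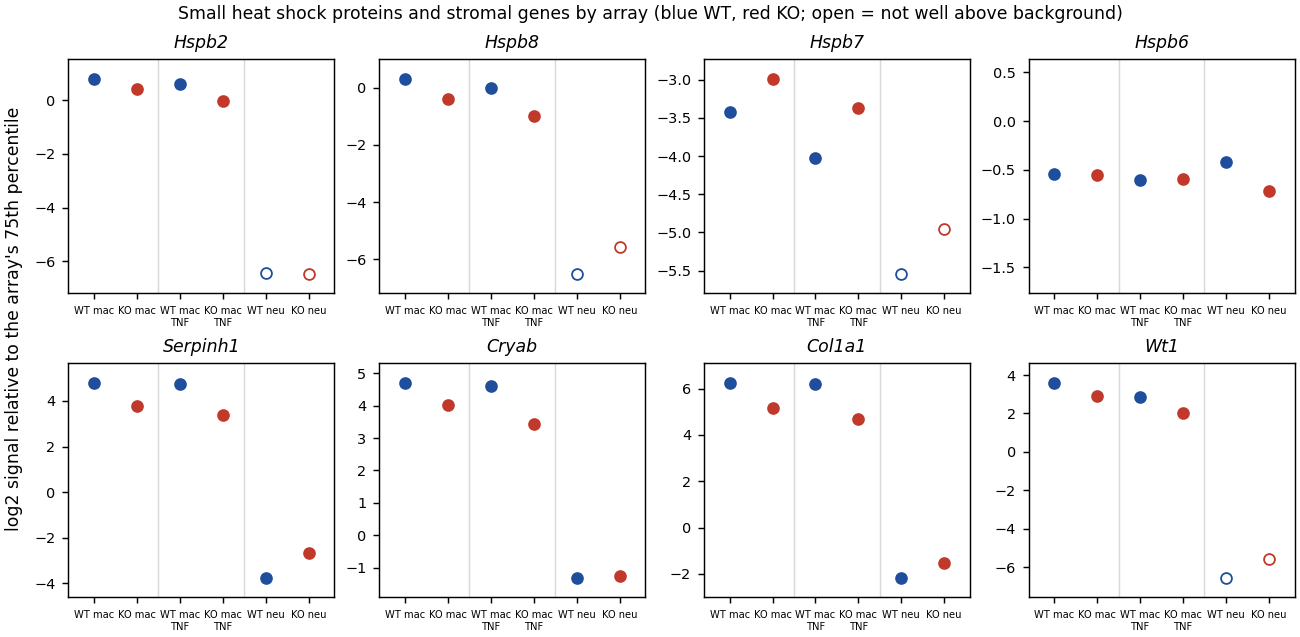
Log2 signal relative to the array's 75th percentile (y axis, own scale per gene) of 4 small heat shock proteins in the top row and of Serpinh1, Cryab, Col1a1 and Wt1 in the bottom row, 1 array per group. Blue points are WT, red points KO, and open points were not well above background. Hspb2 and Hspb8 follow the stromal genes from the macrophage to the neutrophil arrays, whereas Hspb6 stays between -0.71 and -0.42.

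Hspb1 (HSP27), the small heat shock protein that also binds actin, was measured in both cell types. Its level was 4.16 and 3.61 in WT and KO macrophages, 4.07 and 3.30 with TNF, and 4.21 and 3.31 in neutrophils. All 3 WT arrays lay close together and above the 3 KO arrays. KO and WT differed by -0.55, -0.77 and -0.90. In limma's fit over the 3 conditions it was -0.74 (SE 0.12, adjusted p = 0.211 from an unadjusted 0.00375), which does not pass.

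Other members lower in neutrophils were named by size. Dnajc12, a J-protein that supports the aromatic amino acid hydroxylases, ran from 2.09 to 2.47 in macrophages and was -0.13 and -0.41 in WT and KO neutrophils. Dnajc13, an endosomal J-protein, ran from 1.65 to 2.14 and was 0.24 and 0.19. In limma's fit Dnajc12 fell by 2.38 (adjusted p = 0.00692) and Dnajc13 by 1.87 (adjusted p = 0.00844). Hspa4l, an HSP110 relative, fell by 1.42 (adjusted p = 0.0147). Among mitochondrial members, Hspa9, the mitochondrial HSP70, was 4.03 and 4.04 in macrophages and 3.01 and 3.05 in neutrophils, a fall of 1.01 (adjusted p = 0.0223), and Dnajc19 and Dnajc15, J-proteins of the import motor, fell by 1.29 (adjusted p = 0.0159) and 1.51 (adjusted p = 0.0222). Hspd1 (HSP60) and Hspe1 (HSP10) did not pass, with differences of -0.18 and 0.69 in WT.

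With TNF, 2 members were at least 2-fold higher in both genotypes. The culture time of the macrophages without TNF is not given, so TNF and time in culture cannot be told apart. Hspa1a was at -2.49 and -2.47 without and -1.23 and -1.30 with TNF, and it was 2.39-fold higher in WT and 2.25-fold in KO. Dnaja4, a class A J-protein of the cytosol, was at 0.02 and -0.42 without and 1.26 and 1.13 with TNF, 2.37-fold higher in WT and 2.93-fold in KO. For both genes the TNF arrays lay above the arrays without TNF in each genotype. In limma's fit over both genotypes Hspa1a rose by 1.22 (SE 0.09, adjusted p = 0.0364) and Dnaja4 by 1.40 (SE 0.13, adjusted p = 0.0414). These were 2 of 65 members, where 6.87% of all genes passed and 3.39% rose; at an unadjusted p under 0.05 there were 24 members (36.9%), against 32.1% of genes. After normexp background correction the Hspa1a differences were 0.90 in WT and 0.84 in KO, below 2-fold. With probes averaged the Dnaja4 difference in KO was 0.32, which ends that call; its other probe was not well above background on any array.

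By the size rule these 2 were the members called in WT (2 of 66, against 9.01% of genes and 4.41% higher), and KO had 3 of 65 called, 2 higher and 1 lower, against 8.19% of genes (4.46% and 3.73%). The added gene in KO was Dnajb13, an axonemal J-protein, which was at -3.41 without TNF and not well above background with it, at least 2.70-fold lower. Its normexp value was -0.19, which ends that call. Smaller differences were mostly positive: 40 of 64 members were higher with TNF in both genotypes (62.5%), against 42.9% of genes, and 15 were lower in both (23.4%, against 34.2%). The median member was 0.18 in WT and 0.13 in KO, against 0.02 and 0.02 for all genes. After quantile normalization 32 were higher in both (50%, against 38.3% of genes), and with spike-in scaling 15 (23.4%, against 18.7%), when the KO median turned to -0.17.

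**Figure D4:**
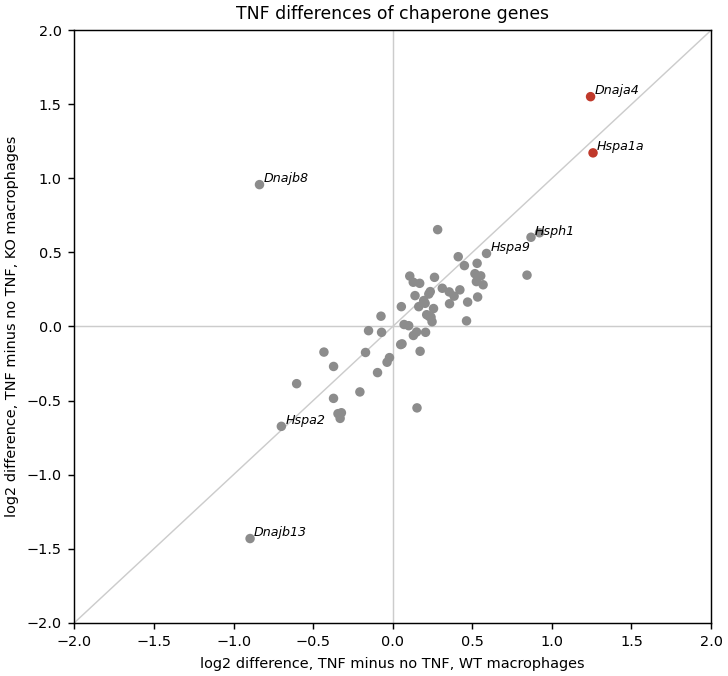
Log2 difference of TNF minus no TNF in WT macrophages (x axis) and KO macrophages (y axis), 1 point per member measured in both. Red points were at least 2-fold different in both genotypes, and the grey line marks equal differences. Dnaja4 and Hspa1a lie at the upper right, and Dnajb8 lies below 0 in WT and above 0 in KO.

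Most ER, mitochondrial and TRiC chaperones were above 0 with TNF, by less than 2-fold, where 51.8% of all genes were in WT and 52.8% in KO. Small heat shock proteins, a list taken by gene name, were not: 5 of 7 were below 0 in each genotype (medians -0.10 and -0.31). Those above were Hspb9 (0.17 in WT and 0.29 in KO) and Hspb11 (0.31 and 0.26), which is listed by its name alone. Hspa5 (BiP), the ER HSP70, went from 7.06 to 7.63 in WT and from 6.98 to 7.27 in KO, and Hsp90b1 (GRP94), the ER HSP90, from 6.71 to 7.06 and from 6.61 to 6.76. All 18 ER chaperones on the list were higher with TNF in WT (median 0.42) and 15 of 18 in KO (median 0.25), none 2-fold, and Pdia4 alone passed limma's fit (0.88, adjusted p = 0.0449). Hspa9 went from 4.03 to 4.62 and from 4.04 to 4.54, Hspd1 from 5.62 to 6.09 and from 5.51 to 5.55, and Hspe1 from 5.01 to 5.53 and from 4.98 to 5.29. Of 14 mitochondrial chaperones, 13 were higher in WT (median 0.32) and 12 in KO (median 0.25), and none passed the fit. The cytosolic TRiC chaperonin, which folds actin and tubulin, had 8 of 8 subunits higher in WT (median 0.42) and 7 of 8 in KO (median 0.17), none past the fit. With spike-in scaling the KO differences of Hspa5, Hsp90b1 and Hspd1 turned to -0.02, -0.15 and -0.26, and the KO medians of the 3 lists to -0.05, -0.05 and -0.13, while those of WT stayed above 0.

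The TNF difference itself differed at least 2-fold between the genotypes in 1 of 64 members, Dnajb8 (1.79), where 2.11% of genes did, and no p can be given with 1 array a group. The median over the members was -0.13, against -0.02 for all genes.

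KO and WT were compared in each condition to ask which chaperones differ with TIARP genotype. No member passed limma's fit over the 3 conditions, and 0% of genes passed either; at an unadjusted p under 0.05 there were 9 of 65 members (13.8%), against 14.7% of genes. By the size rule 1 of 66 members was called in macrophages without TNF, higher in KO, where 5.66% of genes were called and 4.09% were higher. With TNF 3 of 65 were called, 1 higher and 2 lower, against 9.67% of genes (6.99% and 2.69%). In neutrophils 5 of 64 were called, all lower, against 8.38% of genes in either direction and 4.74% lower. With spike-in scaling the splits were 1 higher and 5 lower (9.09% of members, against 8.95% of genes), 1 and 20 (32.3%, against 22.9%), and 0 and 10 (15.6%, against 11.5%).

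The direction of the smaller differences was less even. Of the 60 members well above background on every array, 21 were lower in KO in all 3 conditions (35.0%), against 16.7% of 20162 genes, and 9 were higher in all 3 (15.0%), against 26.0%. The 21 were Dnaja1, Dnaja2, Dnajb4, Dnajb5, Dnajb11, Dnajc1, Dnajc2, Dnajc3, Dnajc11, Dnajc14, Dnajc21, Hsp90aa1, Hsp90ab1, Hsp90b1, Hspa4, Hspa5, Hspa13, Hspb1, Hspd1, Hspe1 and Hsph1. They include all 3 HSP90 genes, both mitochondrial chaperonin genes and the ER chaperones Hspa5 and Hsp90b1. Dnajc14 is among them by its brighter probe alone, which differed by only -0.001 with TNF. Its dimmer probe was higher in KO in each condition (0.01, 0.05 and 0.64). Dimmer probes well above background on all arrays also departed for Dnaja1 (0.36, 0.20 and -0.08) and Dnajb5 (0.06, 0.08 and -0.69). A dimmer Hspe1 probe gave 0.01, -0.28 and -0.38. Such probes of Dnaja2, Dnajc11, Dnajc21, Hspa4, Hspa13 and Hsph1 were lower in KO in each condition. The counts were 27 of 60 (45.0%, against 22.4% of genes) after quantile normalization, and 57 of 60 (95.0%, against 78.0%) with spike-in scaling. The median member was -0.00 in macrophages, -0.07 with TNF and -0.23 in neutrophils, against 0.07, 0.05 and -0.01 for all genes.

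**Figure D5:**
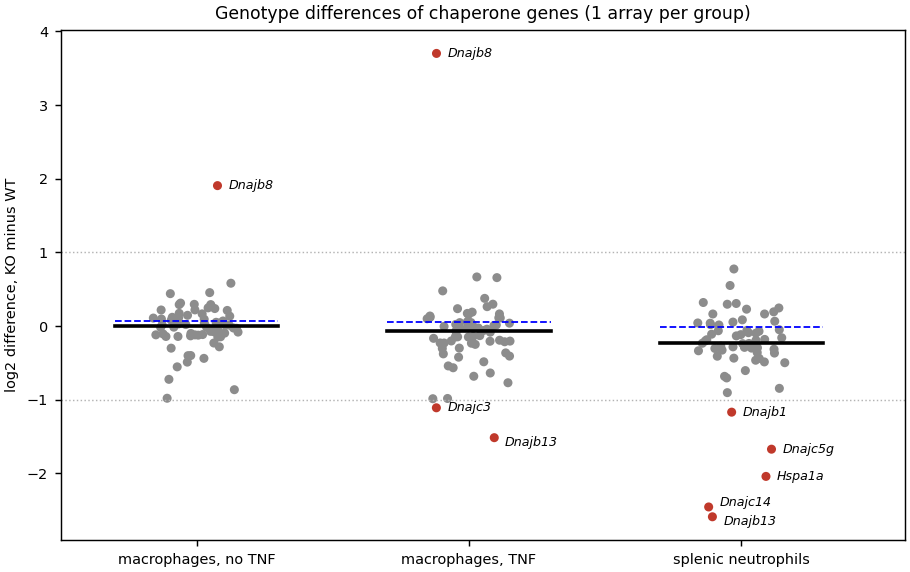
Log2 difference of KO minus WT for each measured member (points) in macrophages without TNF, macrophages with TNF and splenic neutrophils, 1 array per group. Red points were at least 2-fold different, black lines are the medians of the members (-0.00, -0.07 and -0.23) and blue dashed lines those of all genes (0.07, 0.05 and -0.01). The called members of the neutrophils all lie below 0.

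Dnajc3 (p58IPK), an ER co-chaperone of BiP that also restrains the kinases of eIF2 alpha, was lower in KO throughout. Its level was 2.31 and 1.44 in WT and KO macrophages, 2.51 and 1.40 with TNF, and 1.45 and 0.60 in neutrophils. Within each condition the KO array was the lower one, although WT neutrophils were level with KO macrophages. KO was 2.16-fold lower with TNF, and the differences of the conditions were -0.86, -1.11 and -0.85. limma's fit gave -0.94 (SE 0.11), the lowest of the members in p, but its adjusted p in limma was 0.192. They ran from -0.77 to -1.10 under quantile normalization and normexp correction and reached -1.89 with spike-in scaling.

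Most heat shock factor targets were below WT in KO macrophages, mostly by less than 2-fold. Of the 17 on the array, all 17 were below WT in macrophages with TNF (median -0.26), 14 without TNF (median -0.07) and 11 in neutrophils (median -0.27), while 42.7%, 38.9% and 51.3% of all genes were below 0. Those past 2-fold were Serpinh1 in both macrophage comparisons and Cryab with TNF, which moved with the stromal markers above, and Hspa1a and Dnajb1 in neutrophils, where Serpinh1 was higher (-2.67 against -3.75). Hsph1 was lower in KO by -0.30, -0.57 and -0.60 (limma -0.49, SE 0.12, adjusted p = 0.270), and its dimmer probe gave -0.32, -0.67 and -0.75. Hspd1 differed by -0.11, -0.54 and -0.31. No gene of the list passed the fit. All 8 TRiC subunits were also below WT in both macrophage comparisons (medians -0.11 and -0.32), and 7 of 8 in neutrophils (median -0.09).

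In KO neutrophils 16 of 18 ER chaperones were below WT (median -0.55), with Sil1, the nucleotide exchange factor of BiP, and Pdia4 past 2-fold (3.56 against 2.48, and 2.74 against 1.70). Hsp90b1 was 6.48 in WT and 5.80 in KO, while Hspa5 (7.39 and 7.33) and Dnajb9 were level. The plasma cell markers on the array were all 4 lower in KO neutrophils (median -1.64), 3 of them past 2-fold, with Sdc1 at 1.60 and -0.67 and Xbp1 at 6.95 and 5.95. Their summed signal was 132 in WT and 64.2 in KO, that of macrophage markers 588 and 384, and that of erythroid markers went the other way. The part of these cells in the chaperone values was not tested. Among the 26 partners of HSP70 and HSP90, Fkbp5, an HSP90-bound immunophilin and glucocorticoid target, was past 2-fold higher in KO neutrophils (3.36 against 2.31), and Bag2 lower in KO macrophages with TNF (-1.56 against -0.54).

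Dnajb8, a J-protein known from testis that suppresses aggregation, was the one member higher in KO by 2-fold. Its level was -3.97 and -2.07 in WT and KO macrophages, -4.81 and -1.11 with TNF, and -0.88 and -0.87 in neutrophils. Both WT macrophage arrays were far below the other 4. KO exceeded WT 3.75-fold without and 13.0-fold with TNF, at low signal, and normexp correction brought the log2 differences from 1.91 to 1.03 and from 3.70 to 1.88. Some neutrophil, B cell and T cell markers were also higher on the KO macrophage arrays. Cxcr2, the neutrophil chemokine receptor, was -4.02 and -0.14 in WT and KO without TNF and -4.46 and -0.94 with it. Of the markers, 5 of 10 for mature neutrophils and 4 of 6 measured for B cells were past 2-fold without TNF, and 4 of 10 and 5 of 6 with it, as were 3 of 7 for T cells in each. The median of the mature neutrophil markers was 0.86 without TNF and 0.19 with it, when 4 of 10 were below 0. Their part in the Dnajb8 values was not tested.

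Dnajb13 was -2.43 and -3.41 in WT and KO macrophages, -3.33 and not well above background with TNF, and -1.01 and -3.60 in neutrophils. Each KO array was below its WT counterpart, at least 2.86-fold with TNF and 6.02-fold in neutrophils. limma's fit gave -1.76 (adjusted p = 0.240), and normexp correction brought the difference with TNF to -0.19 and that in neutrophils from -2.59 to -1.08. Dnajc5g, a testis relative of the vesicle chaperone Dnajc5, was well above background on the WT neutrophil array alone (-2.74) and was at least 3.18-fold lower in KO, with a normexp value of -0.52, which ends that call.

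Where a member had a second probe well above background on all arrays (29 such probes), its genotype difference had the sign of the brightest probe's for 19 of 29 in macrophages, 22 with TNF and 24 in neutrophils. The TNF difference had the same sign for 25 in WT and 23 in KO, and the cell type difference for 27 in each genotype. Over the 10 spots of 1 probe, the SD of log2 signal was 0.05 to 0.09 for Dnajc11 and 0.08 to 0.74 for the dimmer Hspb7.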

How the data were processed

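Gene expression was measured on 6 one-colour Agilent arrays, 1 per group, all on 1 slide and in 1 scan run. Per the labels' protocols, total RNA was labelled with Cy3. The deposited files are scanner output whose intensity values (background-subtracted processed signal) came from Agilent Feature Extraction 10.7.3.1, per the submitters' processing notes and the file headers; probe positions in the files are on mm9.

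Outlier spots were left out (101 to 121 an array), no spot was saturated, and spots of 1 probe were averaged. The log2 signal minus each array's 75th percentile over 55681 probes was used, with the brightest probe per gene name. Precision is limited by 1 array per group. The size rule asked for 2-fold, with the brighter array well above background by the scanner software's flag. limma 3.58.1 (R 4.3.3) was fitted across all genes well above background on 0.5 or more of a fit's arrays, in 3 additive models: TNF with genotype (1 residual degree of freedom), genotype with condition (2), and cell type with genotype (1), with Benjamini-Hochberg adjustment over all genes and a threshold of 0.05. Scripts were tested on simulated data. Alternatives were normexp correction (offset 50), quantile normalization, spike-in scaling (8 probes), no filter on dim probes, probes well above background on all arrays, and the mean over a gene's probes.

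The members and lists were chosen with earlier results of these data known. Named were 15 core chaperones, members past the size rule between genotypes or with TNF, the 5 largest in each direction between WT neutrophils and macrophages, up to the 5 largest in each direction past a limma fit, and the 2 largest list genes outside the family per direction; Hspa2, Dnajb4, Dnajc7, Dnajc9, Dnajc15, Dnajc19, Hspb6, Bag2, Creld2 and the marker genes were added after their values were seen. RefSeq accessions matched 71 of 73 members.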

Additional observations from a re-analysis of the deposited data

How the results depend on the processing

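No paired analysis was possible because each group has 1 array, and a replicate block needs at least 2 numbers shared by the groups; the additive fits set the same comparison in different conditions side by side. With spike-in scaling the members called between KO and WT were 6 in macrophages (1 in the main setting), 21 with TNF (3) and 10 in neutrophils (5). Those between neutrophils and macrophages were 50 in WT (24) and 51 in KO (30). limma then called 4 for TNF (2), 39 for genotype (0) and 55 for cell type (33). The cause was not tested beyond the shift of the median of all genes given above; the share of called genes that were higher moved with it, from 72.3% to 19.9% for KO against WT in macrophages, from 72.2% to 8.56% with TNF, from 43.5% to 13.1% in neutrophils, from 54.4% to 26.8% for TNF in KO, and for neutrophils against macrophages from 59.6% to 11.2% in WT and from 56.4% to 9.96% in KO. After quantile normalization 2 were called between KO and WT macrophages, and the share higher with TNF was 60.9%. Without the filter on dim probes the counts were 3 for KO against WT macrophages, 6 for TNF in WT, and 0 for TNF in limma, which then tests more genes. With probes well above background on all arrays they were 3 in KO against WT neutrophils and 6 for TNF in limma, with fewer genes tested. normexp correction gave 1 for TNF in WT, 1 for TNF in KO and 21 for TNF in limma, and the mean over probes gave 1 for TNF in WT; the cause was not tested. Leaving out each pair of arrays in turn, the genotype fit called 0 to 0 members. No member called between genotypes or with TNF changed sign under these alternatives. Over all members tested, quantile or spike-in scaling turned the sign of 31 of 66, 24 of 65 and 15 of 64 between KO and WT (macrophages, with TNF, neutrophils), 5 of 66 and 26 of 65 for TNF in WT and KO, and 24 of 67 and 21 of 66 between cell types in WT and KO. Dim members such as Dnajb8, Dnajb13 and Dnajc5g are limited by signal over background.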

Other observations

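A pair of probes fell outside the naming rule but are described in the files as related to heat shock proteins. AV310571, described as similar to the rat HSP60, was well above background on all 6 arrays, and KO minus WT on the log2 scale was -0.11 in macrophages, -0.54 with TNF and -0.39 in neutrophils, while TNF minus no TNF was 0.51 in WT and 0.09 in KO. The Hspd1 probe read -0.11, -0.54 and -0.31, and 0.46 and 0.04, in the same comparisons. TC1737254, described as a partial HSP27, was well above background on 3 arrays, and KO minus WT was 0.07, -0.04 and 0.07, whereas Hspb1 read -0.55, -0.77 and -0.90.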
